A study of Sus scrofa with 60 samples.

Results

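Livers of sham-operated neonatal pigs fed parenterally with a mixed lipid emulsion (MLE-sham, n = 9) were compared with livers of sham-operated pigs fed formula through the gut (ENT-sham, n = 12) by RNA sequencing of 21 of the 60 pigs of the series. The pigs were taken by sample label, and every named gene was analysed. The piglets were of a mixed Landrace and Hampshire stock and of both sexes, were delivered preterm by caesarean section, and had liver collected on day 14. All received total parenteral nutrition for the initial 24 hours and underwent sham surgery, in which the abdomen was opened and the liver handled but the bile duct was not tied. ENT-sham pigs were then weaned onto a milk replacer formula given by orogastric tube and were fully enteral by day 7, whereas MLE-sham pigs stayed on calorie-matched parenteral nutrition (PN) with SMOFlipid, an emulsion of soybean oil, medium-chain triglycerides, olive oil, and fish oil. Another sham group, SLE-sham (n = 10), received PN with the soybean emulsion Intralipid and is given beside the others. The MLE-sham and ENT-sham diets differed in route, formula, and lipid at once, and these cannot be told apart.

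Food in the gut drives several liver programmes. Bile acids returning from the intestine activate the receptor FXR and restrain CYP7A1, the rate-limiting enzyme of bile acid synthesis, and portal nutrients and insulin set the enzymes of glucose storage and release. The liver also senses body iron through the bone morphogenetic protein BMP6 and answers with hepcidin (HAMP), the hormone that blocks iron export into the blood, and it lowers or raises cholesterol synthesis through the sterol-regulated factor SREBP2. Cytochrome P450 enzymes, which clear drugs and toxins, are under the nuclear receptors CAR (NR1I3) and PXR.

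The libraries held 14776809 to 21139248 counted reads, and levels are CPM, which are counts scaled to the size of the library. ENT-sham replicate 2 stood apart from the other ENT-sham livers. It carried 9.31 CPM of LGALS3, 11.5 of CLDN6, and 45.0 of CXCL8, whereas the other 11 ENT-sham livers had at most 1.58, 0.613, and 1.38. Its counts matched those of a bile duct-ligated pig, ENT-BDL replicate 1, and among 1770 pairs of libraries no other was as close (chi-square per degree of freedom 1.91, next pair 16.1, nearest ENT-sham library 92.2), so the results were also computed without it. The labels give these libraries as separate pigs, and n = 12 and the 60 pigs follow the labels, but whether both came from 1 animal or 1 of them carries the wrong label was not tested. The ENT-sham values over all pigs, and their n, hold only if the label of replicate 2 is right. Of the 82 named genes that passed with it, 81 passed without it, all but CXCL8, and 4 moved by more than 0.5 on the log2 scale, namely CXCL8, MFSD2A, CDH16, and S100G, whose values are given both ways. Each pig label carries a 3-digit number, the identifier number, whose meaning is not given. The ENT-sham pigs carried 6 such numbers, 5 of the pigs the same one, and the MLE-sham pigs 4, and the groups shared only 2 of them, with 2 ENT-sham and 4 MLE-sham pigs. The number and the diet are therefore nearly confounded, so that fold changes were also computed with the number as a blocking factor and within the shared numbers.

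Differences are log2 fold changes of MLE-sham over ENT-sham from edgeR's quasi-likelihood test, given with their standard error (SE) and Benjamini-Hochberg adjusted p, and levels are CPM. Of 16210 genes tested, 601 were called, that is, had an adjusted p under 0.05 and a change of more than 2-fold (3.71% of genes), with 258 higher and 343 lower in MLE-sham. At any fold, 1736 genes (10.7%) were higher and 1681 (10.4%) lower, and the median over all genes was -0.01. The counts of list members below are at any fold and are to be read beside these shares. Without ENT-sham replicate 2 the call took in 673 genes (4.16%), 326 higher and 347 lower, and 561 of the 601 were among them. With the number as a block 580 genes were called (3.58%), 409 of them shared with the 601, which is 68.1% of the first set and 70.5% of the second, and at any fold 9.07% of genes were higher and 8.82% lower. Within the shared numbers, where only 6 pigs were compared, 3.00% were higher and 4.33% lower, and 10 of the 525 called genes tested there changed sign. The lowest MLE-sham value exceeded the highest ENT-sham value in 126 genes (0.777% of genes tested), and the reverse held in 91 (0.561%). On the main axis of variation among the 21 libraries, with 20.3% of the variance, ENT-sham replicate 2 lay at -2.07, the other ENT-sham pigs at -40.6 to -9.22, and the MLE-sham pigs at 22.3 to 41.6.

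**Figure D1:**
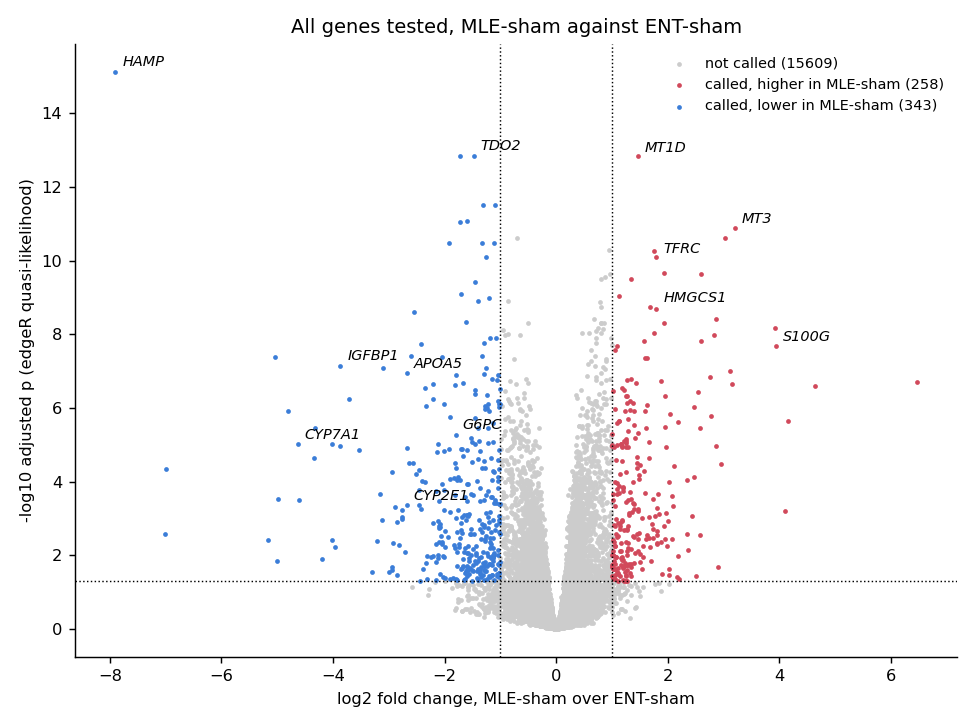
Each point is a gene. The horizontal axis gives the log2 fold change of MLE-sham over ENT-sham and the vertical axis the -log10 of the adjusted p, with dotted lines at the thresholds. HAMP stands alone at the upper left with a log2 fold change of -7.90, MT1D lies at 1.46, and MT3 at 3.20.

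Hepcidin was close to absent in MLE-sham livers. HAMP (chromosome 6, 44785863 to 44787303, plus strand, Sscrofa11.1) ranged from 39.9 to 269 CPM with a median of 116 in ENT-sham and from 0 to 1.95 CPM with a median of 0.257 in MLE-sham. The lowest ENT-sham pig was therefore far above the highest MLE-sham pig. HAMP fell by 7.90 (SE 0.56, adjusted p = 7.47e-16) on the log2 scale, and stood at -7.99 without ENT-sham replicate 2, at -8.48 with the number as a block, and at -8.16 (adjusted p = 0.00621) within the shared numbers. SLE-sham pigs lay at 0.0538 to 2.53 CPM, and MLE-sham and SLE-sham differed by -0.25 (adjusted p = 0.944).

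Several iron genes around hepcidin differed as well. BMP6, the ligand that induces hepcidin, ranged from 8.27 to 19.6 CPM with a median of 13.1 in ENT-sham and from 2.81 to 8.60 CPM with a median of 5.02 in MLE-sham, and only the edges of the groups overlapped. It fell by 1.46 (SE 0.21, adjusted p = 3.17e-07). ATOH8, a transcription factor downstream of BMP signals, fell from 13.8 ± 5.29 to 4.22 ± 1.44 CPM (mean ± SD, n = 12 and n = 9), that is, by 1.71 (SE 0.19, adjusted p = 7.86e-10), but stood at -0.81 (adjusted p = 0.0915) within the shared numbers, and the receptor BMPR1A, the inhibitors SMAD6 and SMAD7, and the target ID1 were lower by 0.30, 0.35, 0.32, and 0.74. Under the number block SMAD6 and ID1 did not pass (adjusted p = 0.645 and 0.121). TFRC, the transferrin receptor that imports iron, ranged from 21.3 to 63.2 CPM with a median of 34.0 in ENT-sham and from 76.8 to 174 CPM with a median of 137 in MLE-sham. Every MLE-sham pig was above every ENT-sham pig, and TFRC rose by 1.79 (SE 0.18, adjusted p = 7.97e-11), or by 1.00 (adjusted p = 0.00524) within the shared numbers. The plasma iron carrier TF, the heavy chain of the iron store ferritin (FTH1), and the iron exporter SLC40A1, which hepcidin degrades, were higher by 0.59, 0.71, and 0.47. In all, 5 of 23 tested iron genes were higher and 11 lower, with a median of -0.28, and the counts were 5 and 11 without ENT-sham replicate 2 and 4 and 8 with the number as a block. None of the 23 passed between MLE-sham and SLE-sham at an adjusted p under 0.05 (edgeR). Over all genes only 0.370% were higher and 0.629% lower in that test.

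Markers of red cell precursors, which take up iron through TFRC, differed beside these genes. HBB, a haemoglobin chain, ranged from 457 to 2252 CPM with a median of 1113 in ENT-sham and from 423 to 765 CPM with a median of 488 in MLE-sham, so that 3 of 12 ENT-sham pigs lay in the MLE-sham range. HBB fell by 1.12 (SE 0.34, adjusted p = 0.0141) and AHSP, its chaperone, by 1.65 (SE 0.61, adjusted p = 0.0466). In the fit with the number as a block the changes were -0.71 (adjusted p = 0.126) and -1.0 (adjusted p = 0.212), and without single pigs the AHSP call was lost in 11 of 21 fits. The other markers of this list did not pass, apart from TFRC, and its summed level ranged from 528 to 2570.4 CPM in ENT-sham and from 557 to 1000.0 in MLE-sham. Its part in the iron results was not tested. In these bulk samples fewer cells of a type and less RNA per cell cannot be told apart.

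Of 13 genes of metal handling 5 were higher and 1 was lower in MLE-sham, and metallothioneins, small proteins that bind zinc and copper, rose most. MT1D (chromosome 6, 18650985 to 18652317) ranged from 2312 to 4784 CPM with a median of 3622 in ENT-sham and from 7322 to 12442 CPM with a median of 10034 in MLE-sham. The groups did not overlap, and MT1D rose by 1.46 (SE 0.12, adjusted p = 1.41e-13). The nearby gene annotated as MT3 (chromosome 6, 18634735 to 18636134) ranged from 12.9 to 92.8 CPM with a median of 50.7 in ENT-sham and from 136 to 655 CPM with a median of 476 in MLE-sham, again without overlap, and rose by 3.20 (SE 0.31, adjusted p = 1.32e-11). MT1A rose by 1.00, the zinc exporter SLC30A1 by 0.45, and the manganese exporter SLC30A10 by 0.54, whereas the importer SLC39A8 fell by 0.65. MT1A, MT1D, and MT3 are close paralogs, and reads may be shared among them. SLE-sham pigs had 7488 to 13478 CPM of MT1D. None of the 13 genes of metal handling passed between the emulsions at an adjusted p under 0.05, against 0.370% of all genes higher and 0.629% lower.

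**Figure D2:**
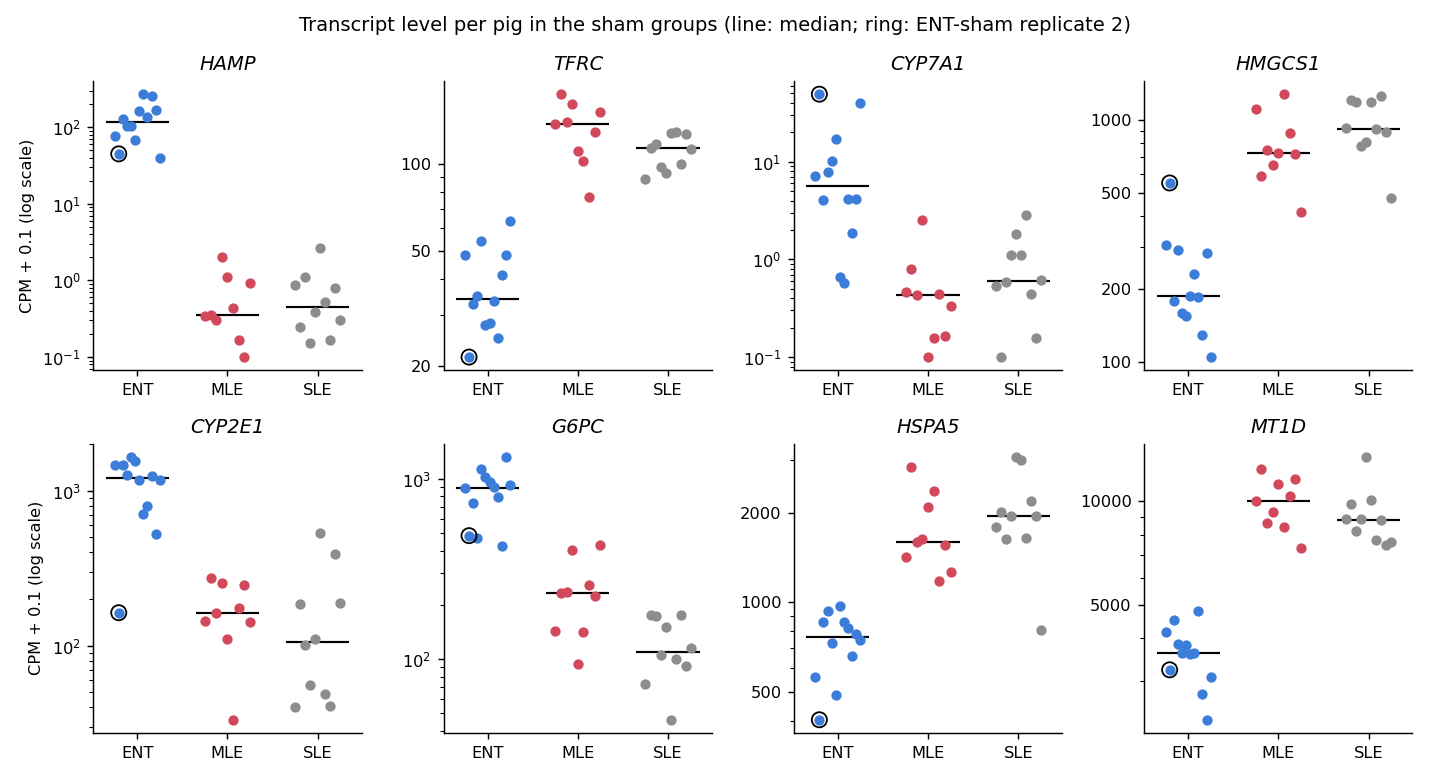
Each point is a pig, with CPM plus 0.1 on a log axis, the line at the group median, and a ring around ENT-sham replicate 2. HAMP, TFRC, HSPA5, and MT1D separate every ENT-sham pig from every MLE-sham pig, HMGCS1 and CYP2E1 do so without ENT-sham replicate 2, and CYP7A1 and G6PC overlap.

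Genes of cholesterol synthesis and LDL uptake had the largest share of rises of the 41 lists. Of 23 tested, 18 were higher and none lower, with a median of 0.61, against -0.01 over all genes. HMGCS1 (chromosome 16, 27936225 to 27957261), which makes the precursor of mevalonate, ranged from 105 to 549 CPM with a median of 187 in ENT-sham and from 417 to 1277 CPM with a median of 733 in MLE-sham. The highest ENT-sham value was that of replicate 2, and the other 11 ENT-sham pigs stayed at or below 306 CPM, under every MLE-sham pig. HMGCS1 rose by 1.79 (SE 0.21, adjusted p = 2.04e-09), and by 1.98 without replicate 2.

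Further along the pathway, MVD, SQLE, and NSDHL were higher by 1.00, 0.81, and 0.61, SREBF2, the factor that drives it, by 0.26, and INSIG1, a target of the pathway that retains that factor in the endoplasmic reticulum, by 1.01 (SE 0.17, adjusted p = 9.98e-06). Under the number block 16 of the 23 were higher, and within the shared numbers 10, none lower in either. No gene of the list passed between MLE-sham and SLE-sham at an adjusted p under 0.05, against 0.370% of all genes higher and 0.629% lower. The difference of MLE from ENT pigs in HMGCS1 was larger in sham than in bile duct-ligated (BDL) pigs, by 1.48 (SE 0.30, adjusted p = 0.0423), 1 of the 10 genes that passed this test at any fold (0.0617% of genes) with 4 called (0.0247%). SQLE and the sterol exporter ABCG5 passed it as well, by 0.87 and 0.92 (adjusted p = 0.0431 and 0.0423, edgeR). In BDL pigs the differences of MLE from ENT were -0.053 for SQLE and -0.46 for ABCG5. Of the sterol exporters ABCG5 and ABCG8, which pump cholesterol into bile, ABCG8 was higher by 0.51 (SE 0.13, adjusted p = 0.002) and ABCG5 by 0.46 (SE 0.13, adjusted p = 0.00691). ABCG5 was lower in MLE-sham than in SLE-sham, by 0.51 (SE 0.14, adjusted p = 0.0493).

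Bile acid synthesis showed falls only. CYP7A1 (chromosome 4, 74343101 to 74372628) ranged from 0.469 to 49.1 CPM with a median of 5.56 in ENT-sham and from 0 to 2.44 CPM with a median of 0.335 in MLE-sham. The ENT-sham pigs spread over 2 orders of magnitude and the lowest of them overlapped with MLE-sham, of which 8 of 9 pigs stayed at or below 0.705 CPM. CYP7A1 fell by 4.64 (SE 0.78, adjusted p = 9.51e-06), by 4.16 without replicate 2, which had the highest value, by 4.43 with the number as a block, and by 6.70 within the shared numbers. SLC27A5, which activates bile acids for conjugation, fell from 363 ± 137 to 119 ± 46.7 CPM, or by 1.61 (SE 0.28, adjusted p = 1.39e-05). In all, 5 of 12 tested synthesis genes were lower and none higher, with a median of -0.20. Among 16 transporters 3 were higher and 5 lower, with 2 and 5 without ENT-sham replicate 2 and 1 and 6 with the number as a block. The uptake carriers SLCO1A2 and SLC10A1 fell by 1.79 (SE 0.24, adjusted p = 1.25e-07) and 0.85 (SE 0.16, adjusted p = 8.27e-05), and the basolateral exporters ABCC4 and ABCC3 changed in opposite directions, by 0.62 and -0.60. In BDL pigs the difference of MLE from ENT in ABCC3 was 0.22. The ABCC3 difference between sham and BDL was -0.81 (adjusted p = 0.0423, edgeR). ABCB4, which exports phospholipid into bile, was lower in MLE-sham than in SLE-sham by 1.34 (SE 0.30, adjusted p = 0.0111). FGF19, the gut hormone that represses CYP7A1, had 0 counts in all 21 livers, which allows up to 3 counts a library.

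Genes of glucose handling were mostly lower, with 15 of 25 lower, 1 higher, and a median of -0.39 (-0.41 without ENT-sham replicate 2, -0.58 with the number as a block). IGFBP1 (chromosome 18, 50018487 to 50022799), a binding protein that insulin represses, ranged from 179.9 to 1020.3 CPM with a median of 606 in ENT-sham and from 11.2 to 81.2 CPM with a median of 29.7 in MLE-sham. No MLE-sham pig reached the ENT-sham range, and IGFBP1 fell by 3.87 (SE 0.51, adjusted p = 7.06e-08). G6PC, which releases glucose from the liver and is also repressed by insulin, ranged from 424 to 1324 CPM with a median of 891 in ENT-sham and from 93.5 to 429.9 CPM with a median of 232 in MLE-sham, with an overlap at the edge, and fell by 1.80 (SE 0.29, adjusted p = 5.29e-06). PCK1, the other classic gluconeogenic gene, differed by -0.24 (SE 0.34, adjusted p = 0.657), from 769 ± 279 to 651 ± 402 CPM.

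Several enzymes that use and store glucose fell as well. KHK, which starts fructose use, was lower by 1.90 (SE 0.29, adjusted p = 1.81e-06). PKLR, of the last step of glycolysis, fell from 166 ± 50.2 to 67.5 ± 9.76 CPM with no overlap between the groups, or by 1.30 (SE 0.16, adjusted p = 1.73e-08). GYS2, the liver glycogen synthase, fell by 1.46 (SE 0.21, adjusted p = 4.16e-07), UGP2, which makes its substrate, by 1.18 (SE 0.15, adjusted p = 1.23e-08), and TXNIP, a sugar-induced gene, by 1.01 (SE 0.15, adjusted p = 7.94e-07). The insulin receptor INSR and its substrates IRS1 and IRS2 were lower by 0.39, 0.38, and 0.81, of which IRS1 did not pass without ENT-sham replicate 2 (adjusted p = 0.0522) or with the number as a block (adjusted p = 0.436). In direct tests PFKFB3 and PFKL, which drive glycolysis at its phosphofructokinase step, were lower in MLE-sham than in SLE-sham by 1.62 (adjusted p = 0.00929) and 0.40 (adjusted p = 0.0374).

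In the growth hormone and IGF axis 1 of 17 genes was higher and 6 were lower, IGFBP1 among them. The growth hormone receptor GHR fell by 0.61 (SE 0.14, adjusted p = 0.00117) and SOCS2, which growth hormone induces, by 1.52 (SE 0.25, adjusted p = 6.56e-06). IGF1 ranged from 10.2 to 45.2 CPM with a median of 18.3 in ENT-sham and from 4.69 to 28 CPM with a median of 8.81 in MLE-sham. The ranges overlapped, and IGF1 differed by -0.75 (adjusted p = 0.139), but by -1.53 with an adjusted p of 0.0074 with the number as a block.

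Many drug-metabolising enzymes fell. Of 26 tested cytochromes and receptors 11 were lower, 9 of them more than 2-fold, and 1 higher, with a median of -0.30, and of -0.72 with the number as a block. CYP2E1 (chromosome 14, 141690737 to 141703078), which oxidises ethanol and paracetamol, ranged from 163 to 1658 CPM with a median of 1214 in ENT-sham and from 33.1 to 274 CPM with a median of 163 in MLE-sham. The 163 CPM of ENT-sham replicate 2 set the lower end, and the other 11 ENT-sham pigs had at least 523 CPM. CYP2E1 fell by 2.68 (SE 0.58, adjusted p = 0.000432). CYP1A2, of caffeine clearance, fell from 86.7 ± 50.1 to 13.7 ± 6.74 CPM, or by 2.66 (SE 0.45, adjusted p = 1.2e-05), CYP2C49 by 2.63 (SE 0.47, adjusted p = 3.12e-05), CYP4A21 by 2.01 (SE 0.40, adjusted p = 0.000165), and CYP2A19 by 3.16 (SE 0.65, adjusted p = 0.000223). CYP2C42 was the exception and was higher by 0.98, but by 0.38 (adjusted p = 0.497) with the number as a block. Reads may be shared among the paralogs of the CYP2A, CYP2C, and CYP4A families.

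NR1I3, the receptor CAR, ranged from 13.9 to 38.3 CPM with a median of 28.1 in ENT-sham and from 5.53 to 20.2 CPM with a median of 10.5 in MLE-sham. It fell by 1.41 (SE 0.25, adjusted p = 2.48e-05), and without ENT-sham replicate 2 the groups did not overlap. The flavin monooxygenases FMO5 and FMO1 fell by 2.35 (SE 0.33, adjusted p = 2.91e-07) and 1.67 (SE 0.29, adjusted p = 2e-05), the aldehyde oxidase AOX1 by 1.82 (SE 0.25, adjusted p = 2.38e-07), and SULT2A1, which sulfates steroids and bile acids, by 1.63 (SE 0.34, adjusted p = 0.000258). In SULT2A1 every MLE-sham pig, at 21.5 to 116 CPM, lay under every ENT-sham pig, at 142 to 319. Of 28 other drug-metabolising enzymes 10 were lower and 3 higher. CYP3A29 did not pass, at -0.93 (adjusted p = 0.0667), but did with the number as a block, at -1.70 (adjusted p = 0.00414). None of these 26 and 28 genes passed between MLE-sham and SLE-sham at an adjusted p under 0.05, where 0.370% of all genes were higher and 0.629% lower.

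Chaperones of the endoplasmic reticulum (ER), which fold secreted proteins, were mostly higher, with 18 of 31 genes higher, 2 lower, and a median of 0.40. HSPA5 (chromosome 1, 265930044 to 265934959), the master chaperone BiP, ranged from 403 to 975 CPM with a median of 763 in ENT-sham and from 1175 to 2849 CPM with a median of 1595 in MLE-sham. The groups did not overlap, and HSPA5 rose by 1.27 (SE 0.19, adjusted p = 7.23e-07). DERL3, of the export of misfolded proteins, rose from 4.39 ± 2.55 to 24.6 ± 14.0 CPM, or by 2.48 (SE 0.37, adjusted p = 9.59e-07), and the co-chaperones HYOU1, DNAJB11, SDF2L1, and CRELD2 rose by 1.12, 1.10, 1.48, and 1.38. EDEM2 and the stress sensor ERN1 were lower, by 0.36 and 0.38, EDEM2 not with the block (adjusted p = 0.224). With the number as a block 17 genes were higher and 1 was lower, whereas within the shared numbers 1 was higher and 2 were lower, with a median of 0.19, and HSPA5 was higher by 1.04 (adjusted p = 0.0574).

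Genes of the ATF4 response to amino acid shortage and stress were also more often higher than lower, with 11 of 26 higher, 2 lower, and a median of 0.42. DDIT3, which encodes CHOP, rose from 5.91 ± 1.23 to 14.9 ± 5.43 CPM with no overlap, or by 1.33 (SE 0.20, adjusted p = 6.58e-07), ASNS, the asparagine synthetase, by 1.13 (SE 0.18, adjusted p = 2.29e-06), TRIB3 by 1.67 (SE 0.28, adjusted p = 8.36e-06), and the glutathione-degrading CHAC1 by 1.98 (SE 0.54, adjusted p = 0.00544). Of 20 aminoacyl-tRNA synthetases, which ATF4 also induces, 13 were higher by 0.20 to 0.59 and none lower, and 10 were higher with the number as a block. None of the genes of these 3 lists passed between the emulsions at an adjusted p under 0.05, where 0.370% of all genes were higher and 0.629% lower.

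**Figure D3:**
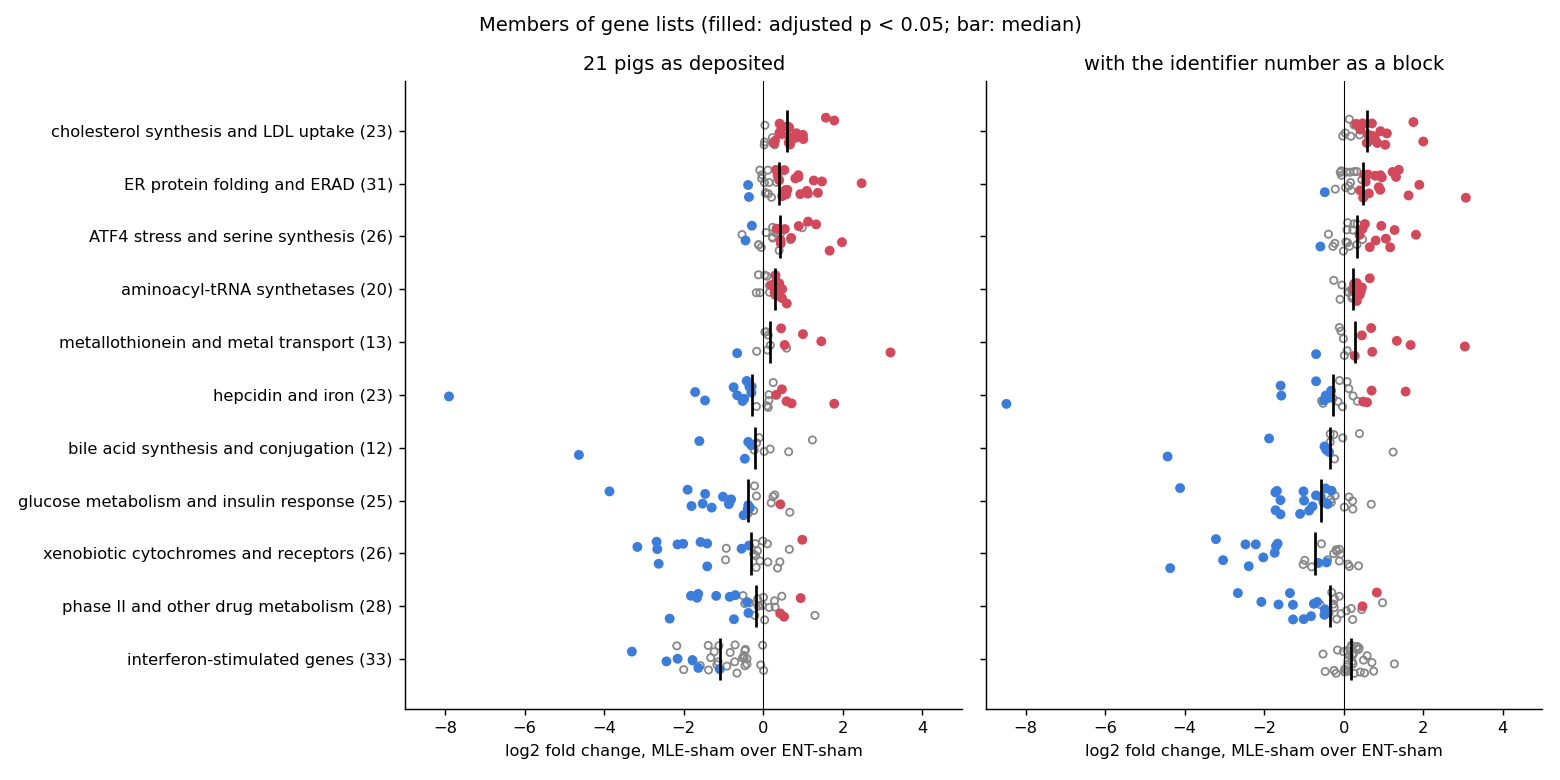
Each point is a gene, placed by its log2 fold change in MLE-sham over ENT-sham, with the number of genes tested in brackets. Filled points passed at an adjusted p under 0.05, red higher and blue lower, and bars are medians. The cholesterol, ER, and tRNA synthetase lists lie to the right and the glucose and cytochrome lists to the left in both panels, whereas the interferon list moves from a median of -1.09 to 0.20 once the identifier number is a block.

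Amino acid breakdown genes changed in both directions, 6 higher and 6 lower of 38. TDO2, the hepatic enzyme that opens the ring of tryptophan, ranged from 526 to 951 CPM with a median of 737 in ENT-sham and from 137 to 383 CPM with a median of 262 in MLE-sham. The groups did not overlap, and TDO2 fell by 1.48 (SE 0.13, adjusted p = 1.41e-13). CDO1, which oxidises cysteine, fell by 0.99, and CSAD, the next step towards taurine, rose from 34.4 ± 7.72 to 86.6 ± 18.2 CPM without overlap, or by 1.33 (SE 0.14, adjusted p = 3.21e-10). GLS2, the liver glutaminase, rose by 1.22 (SE 0.17, adjusted p = 3.26e-07), and GLUL and RHBG, the glutamine synthetase and an ammonium transporter, fell by 1.04 (SE 0.21, adjusted p = 0.000145) and 1.24 (SE 0.36, adjusted p = 0.00884). Within the shared numbers the changes of GLS2 and GLUL were 0.81 and -0.62, with adjusted p-values of 0.119 and 0.378.

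Of 24 vitamin A genes 5 were lower and 1 was higher, and without ENT-sham replicate 2 the counts were 8 and 1. DHRS3, which turns retinaldehyde back to retinol and is itself induced by retinoic acid, ranged from 116 to 164 CPM with a median of 139 in ENT-sham and from 48.1 to 75.3 CPM with a median of 57.0 in MLE-sham, a separation without overlap. It fell by 1.21 (SE 0.14, adjusted p = 1.03e-09), and by 1.03 with the number as a block. ADH4, an alcohol dehydrogenase that oxidises retinol, fell by 3.10 (SE 0.41, adjusted p = 8.44e-08), and stood at -2.62 with the number as a block and at -2.02 (adjusted p = 0.255) within the shared numbers. CYP26A1, which degrades retinoic acid, fell by 2.15 (SE 0.66, adjusted p = 0.0148) and RDH16 by 1.18 (SE 0.32, adjusted p = 0.00443), but with the number as a block they stood at -1.94 (adjusted p = 0.069) and -0.82 (adjusted p = 0.0521).

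Of 19 circadian clock genes 1 was higher and 6 were lower. The repressors NR1D1 and NR1D2 (REV-ERB) fell by 1.13 (SE 0.26, adjusted p = 0.00107) and 1.24 (SE 0.19, adjusted p = 9.81e-07), and the output factors DBP and HLF by 0.95 (SE 0.22, adjusted p = 0.000963) and 0.59 (SE 0.14, adjusted p = 0.00167). CRY1 was higher by 0.98 (SE 0.12, adjusted p = 1.27e-08). ARNTL, the activator BMAL1, and PER2 differed by 0.37 (adjusted p = 0.0548) and 0.41 (adjusted p = 0.207), and both passed with the number as a block, at 0.63 and 0.66. HLF was higher in MLE-sham than in SLE-sham by 0.56 (SE 0.15, adjusted p = 0.0426). The hour of collection is not given in the sources used here.

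Fatty acid genes showed no common direction. Of 38 oxidation genes and PPARA targets 7 were higher and 5 lower, with a median of 0.0072. PDK4, which blocks glucose oxidation, fell by 1.39 (SE 0.23, adjusted p = 7.75e-06). PLIN2, the coat of lipid droplets, was higher by 0.96 (SE 0.17, adjusted p = 2.97e-05). CPT1A, the carnitine gate of mitochondrial oxidation, differed by -0.22 (adjusted p = 0.318), but by -0.57 (adjusted p = 0.00195) with the number as a block, when 1 of these genes was higher and 10 were lower. FGF21, a fasting hormone that PPARA induces, differed by 0.69 (adjusted p = 0.0627). In the direct test CD36 and ANGPTL4, fatty acid-responsive genes of uptake and lipase inhibition, were lower in MLE-sham than in SLE-sham by 1.62 (SE 0.30, adjusted p = 0.00151) and 1.23 (SE 0.32, adjusted p = 0.0426).

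Of 26 genes of lipogenesis 3 were higher and 5 lower. INSIG2, the second retention protein of the SREBP factors, fell by 1.06 (SE 0.15, adjusted p = 1.74e-07), which is opposite in sign to INSIG1, and SREBF1 fell by 0.66 (SE 0.17, adjusted p = 0.00401). FASN, SCD, and FADS2, which make and desaturate fatty acids, differed by -0.065, 0.52, and 0.13, with adjusted p-values of 0.896, 0.0749, and 0.621. APOA5, an activator of triglyceride clearance, ranged from 19.9 to 112 CPM with a median of 45.5 in ENT-sham and from 4.19 to 18.2 CPM with a median of 7.75 in MLE-sham. The ranges did not meet, and APOA5 fell by 2.68 (SE 0.36, adjusted p = 1.15e-07). ANGPTL8, a feeding-induced inhibitor of lipoprotein lipase, fell by 1.23 (SE 0.36, adjusted p = 0.0107). MFSD2A, which carries the fish oil fatty acid DHA as a lysolipid, was higher by 2.50 (SE 0.89, adjusted p = 0.0366) at levels up to 4.62 CPM. Without ENT-sham replicate 2 it was higher by 3.66 (adjusted p = 0.00716). Its call was lost in 9 of the 21 fits that left out 1 pig and with the number as a block (adjusted p = 0.102). In SLE-sham, on the soybean emulsion, MFSD2A was also higher than in ENT-sham, by 3.82 (adjusted p = 0.000277, edgeR). MLE-sham and SLE-sham differed in it by -1.33 (adjusted p = 0.524, edgeR), so its rise was not particular to the mixed emulsion.

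Interferon-stimulated genes, the antiviral programme of the cell, had the lowest median of all lists, at -1.09, with 6 of 33 lower and none higher. RSAD2, the antiviral enzyme viperin, ranged from 3.49 to 836 CPM with a median of 16.9 in ENT-sham and from 3.11 to 28.9 CPM with a median of 8.38 in MLE-sham, and the ranges overlapped widely. The high values belonged to the 5 ENT-sham pigs that have 1 identifier number in common, at 21.8 to 836 CPM, and among the other 7 ENT-sham pigs only replicate 12, at 28.3, lay in that range. The MLE-sham pigs with the number of that replicate, 8 and 9, had 11 and 28.9 CPM, and the remaining MLE-sham pigs at most 9.88. RSAD2 fell by 3.30 (SE 1.12, adjusted p = 0.0282) over all pigs, but differed by 0.051 (adjusted p = 0.98) with the number as a block and by 0.13 (adjusted p = 0.917) within the shared numbers, and its call was lost without ENT-sham replicate 7, the pig at 836 CPM.

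The same held across the list. Under the number block no interferon-stimulated gene passed in either direction and the median was 0.20, and within the shared numbers it was 0.024. MX1 differed by -2.17 (adjusted p = 0.0535) over all pigs and by 0.26 with the block, IFIT1 by -2.15 (adjusted p = 0.0466) and 0.11, and the viral RNA sensor DDX58 by -1.63 (adjusted p = 0.0305) and -0.24. The IFIT1 call was also lost without any of 10 single pigs and the DDX58 call without ENT-sham replicate 7 and without MLE-sham replicates 2 and 5. B2M, the light chain of class I histocompatibility molecules, differed by -1.09 (adjusted p = 0.0237) over all pigs, by -0.52 (adjusted p = 0.383) with the block, and lost its call without ENT-sham replicate 4.

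**Figure D4:**
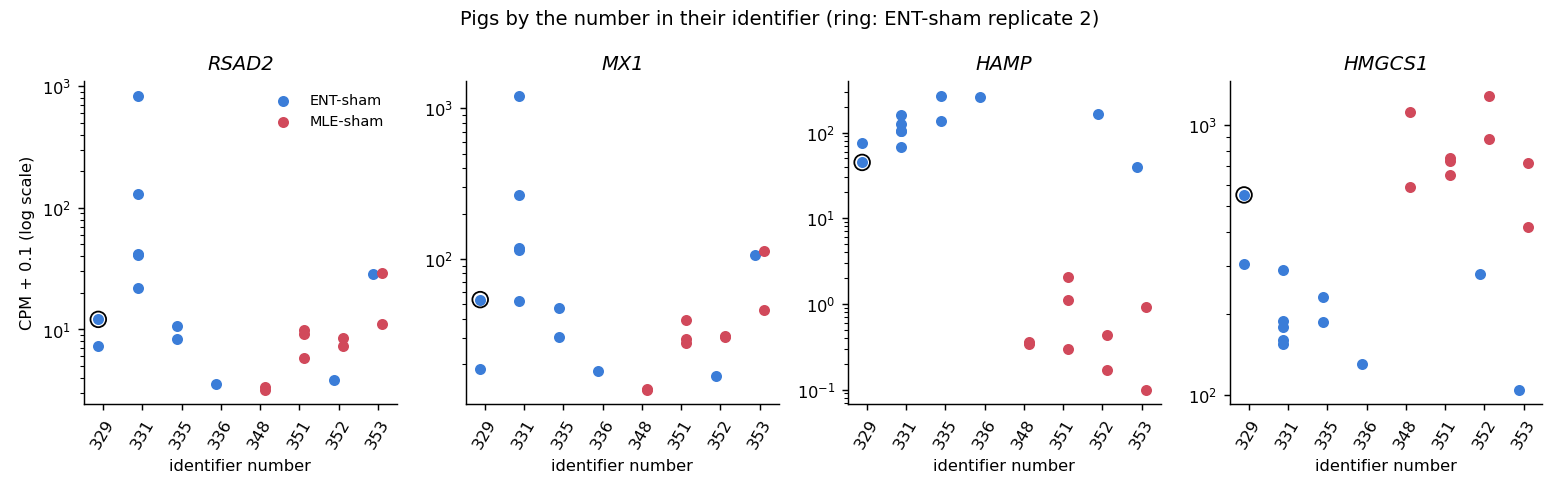
Each point is a pig, placed by the number in its label, with CPM plus 0.1 on a log axis, ENT-sham blue and MLE-sham red. The 5 ENT-sham pigs in the column second from the left span RSAD2 values of 21.8 to 836 CPM, and in the rightmost column the groups meet, whereas HAMP and HMGCS1 separate the groups in the 2 columns that hold both groups.

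Inflammatory genes mostly did not pass, with 1 of 45 higher, 7 lower, and a median of -0.06. Without ENT-sham replicate 2 the counts were 3 higher and 6 lower, and with the number as a block 2 and 1, with a median of 0.10. CXCL8, the neutrophil attractant interleukin 8, fell by 2.21 (SE 0.65, adjusted p = 0.0103) over all pigs. That value rested on the 45.0 CPM of ENT-sham replicate 2, for the other 11 ENT-sham pigs had 0.245 to 1.38 and the MLE-sham pigs 0.299 to 2.12, and without it CXCL8 differed by 0.25 (adjusted p = 0.678). NOS2, the inducible nitric oxide synthase, rose by 1.19 (SE 0.24, adjusted p = 0.000184) but differed by 0.56 (adjusted p = 0.429) within the shared numbers, and SELP, an adhesion molecule of platelets and endothelium, fell by 1.36 (SE 0.24, adjusted p = 1.52e-05). The chemokine CXCL11 fell by 2.93 (SE 0.78, adjusted p = 0.00451), or 1.75 (adjusted p = 0.0789) with the number as a block. CXCL10 differed by -0.49 (adjusted p = 0.535).

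Of 35 secreted and acute phase proteins 4 were higher and 5 lower, or 4 and 8 without ENT-sham replicate 2. AFP, the albumin of the fetus, ranged from 1366 to 5045 CPM with a median of 2315 in ENT-sham and from 5308 to 11521 CPM with a median of 5905 in MLE-sham. The groups did not overlap, and AFP rose by 1.41 (SE 0.23, adjusted p = 6.59e-06). Of a pair of genes named CRP, the acute phase pentraxin, the one with gene ID 396842 fell from 128 ± 96.9 to 9.78 ± 9.59 CPM, or by 3.72 (SE 0.54, adjusted p = 5.89e-07), and the other by 0.94 (SE 0.32, adjusted p = 0.0303). Reads may be shared between them. SAA2 ranged from 4.03 to 839 CPM with a median of 52.8 in ENT-sham and from 4.90 to 403 CPM with a median of 12.4 in MLE-sham, where replicate 2 was the highest. It differed by -1.11 (adjusted p = 0.357) over overlapping ranges. Of 40 coagulation and complement genes 8 were lower and none higher, with 11 and 1 without ENT-sham replicate 2, and MBL2, the lectin that starts the complement cascade, fell by 2.01 (SE 0.60, adjusted p = 0.0111).

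The largest rises among genes of at least 4 CPM on average (2 on the log2 scale) were mostly outside the liver pathways. S100G (chromosome X, 13107611 to 13114213), the vitamin D-induced calcium carrier calbindin-D9k, ranged from 0.387 to 14.0 CPM with a median of 1.00 in ENT-sham and from 8.14 to 73.8 CPM with a median of 38.4 in MLE-sham. ENT-sham replicate 2 was the highest of its group, the others stayed at or below 3.15 CPM, under every MLE-sham pig, and S100G rose by 3.94 (SE 0.49, adjusted p = 2.07e-08), or 4.82 without replicate 2. CDH16, an epithelial cadherin, ranged from 2.81 to 92.6 CPM with a median of 6.12 in ENT-sham and from 19.97 to 117 CPM with a median of 55.1 in MLE-sham. Replicate 2 alone, at 92.6 CPM, put ENT-sham in the MLE-sham range, and CDH16 rose by 2.07 (SE 0.43, adjusted p = 0.000247), or 3.13 without it. ATP1B2, a subunit of the sodium pump, rose from 1.96 ± 0.644 to 14.3 ± 5.79 CPM, or by 2.86 (SE 0.33, adjusted p = 3.77e-09).

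MAL, a protein of apical membrane sorting, rose from 5.83 ± 3.36 to 35.3 ± 12.3 CPM, or by 2.60 (SE 0.32, adjusted p = 1.53e-08), and TCEAL9 from 2.42 ± 1.47 to 14.8 ± 5.42, or by 2.59 (SE 0.28, adjusted p = 2.27e-10), both without overlap of the groups. TNNI2, a troponin of fast muscle, rose by 2.54 (SE 0.36, adjusted p = 3.61e-07), the kinesin KIF1A by 2.02 (SE 0.67, adjusted p = 0.0243), and the immediate early gene EGR1 by 1.96 (SE 0.33, adjusted p = 1.15e-05). CDKN1A, the cell cycle inhibitor p21, rose by 1.33 (SE 0.18, adjusted p = 1.65e-07), and its lowest MLE-sham pig, at 50.5 CPM, lay above the highest ENT-sham pig, at 40.4. Of 34 proliferation genes 2 were higher, CDKN1A included, and 3 lower. RTP3, a liver transmembrane protein, was among the 10 largest falls, at 2.47 (SE 0.45, adjusted p = 4.7e-05).

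The remaining pathway lists each held genes that passed in both directions over all pigs. Of 13 urea cycle and ammonia genes 2 were higher and 3 lower, of 24 genes of branched-chain amino acid breakdown 6 and 4, of 25 NRF2 and glutathione genes 2 and 3, and of 22 selenoproteins 3 and 4. With the number as a block the branched-chain list turned to 1 higher and 8 lower, within the shared numbers it had 0 and 5, and the NRF2 list had 2 and 6 with the block. Apolipoproteins and their partners gave 1 and 5 of 17, sterol efflux genes 4 and 1 of 16, bile acid sensors 1 and 2 of 10, and hypoxia genes 3 and 2 of 22, with EPO, the red cell hormone, lower by 2.09 (SE 0.73, adjusted p = 0.0331) at levels of 1.44 CPM or less, and not passing with the number as a block (adjusted p = 0.483) or without any of 6 single pigs, ENT-sham replicates 7 and 10 and MLE-sham replicates 1, 4, 5, and 6. Among 22 junction genes 2 were higher and 6 lower, and CLDN2, a pore-forming claudin, fell by 1.32 (SE 0.24, adjusted p = 4.21e-05). Of 42 matrix genes 1 was higher and 3 were lower, whereas without ENT-sham replicate 2 4 were higher and 2 lower, and with the number as a block 0 and 1. TGFB1, the main fibrogenic cytokine, differed by -0.12 (adjusted p = 0.57).

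Injury and duct genes depended on ENT-sham replicate 2. MMP7, a protease of reactive bile ducts, stood at 226 CPM in that liver, at 2.50 to 9.92 in the other ENT-sham livers, and at 3.65 to 15.4 in MLE-sham. It differed by -1.13 (adjusted p = 0.142) over all pigs and rose by 1.12 (SE 0.28, adjusted p = 0.00202) without replicate 2. CLDN6 differed by -1.04 (adjusted p = 0.166) over all pigs and rose by 0.96 (SE 0.33, adjusted p = 0.0282) without it. SOX9, a duct cell factor, differed by -0.76 (adjusted p = 0.0636) over all pigs and by -0.36 (adjusted p = 0.334) without replicate 2.

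Markers of every cell type on the lists were detected, though not each marker. GZMB of T and NK cells and MS4A1 of B cells failed the filter on low counts, CAMP of neutrophils was not analysed here, and 3 of the 8 tested B and plasma cell markers stayed under 1 CPM in every liver. The 10 hepatocyte markers summed to 69931 to 148558 CPM in ENT-sham, replicate 2 being the lowest, and 92234 to 150849 in MLE-sham, with 1 higher and 2 lower. Cholangiocyte markers summed to 196 to 245 CPM in 11 ENT-sham pigs, 496 in replicate 2, and 216 to 284 in MLE-sham, with KRT19 alone higher of 10. Without replicate 2 SPP1 passed as well, at 0.99 (adjusted p = 0.00219). Over all pigs no marker of stellate, endothelial, T and NK, B, or neutrophil cells passed, and without replicate 2 the stellate cell markers PDGFRB and LRAT did, at 0.40 (adjusted p = 0.0413) and -0.45 (adjusted p = 0.0411). Of 12 macrophage markers VSIG4 was lower, by 0.41 (SE 0.13, adjusted p = 0.0205), but not with the number as a block (adjusted p = 0.158). The summed macrophage level was 1081 to 2233 CPM in ENT-sham and 918 to 1953 in MLE-sham.

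Fewer genes were called between the emulsions than between either emulsion and ENT-sham. In direct tests 75 genes were called between MLE-sham and SLE-sham (0.463% of genes tested, 20 higher and 55 lower in MLE-sham), and 849 between SLE-sham and ENT-sham (5.24%), a comparison that shares its ENT-sham pigs with the one above. At any fold 0.370% of genes were higher and 0.629% lower in MLE-sham than in SLE-sham. The labels give SLE-sham pigs 9 and 10 a single identifier. Of the 79 named genes that were called in MLE-sham against ENT-sham, only TNC, a matrix protein, also passed against SLE-sham. TNC ranged from 3.29 to 13.8 CPM with a median of 6.95 in ENT-sham, from 3.45 to 19.9 CPM with a median of 7.34 in SLE-sham, and from 2.57 to 6.35 CPM with a median of 3.08 in MLE-sham, the lowest of these groups, and it fell by 1.05 (SE 0.30, adjusted p = 0.00701) against ENT-sham and by 1.26 (SE 0.31, adjusted p = 0.0239) against SLE-sham. Under the number block TNC did not pass against ENT-sham (-0.78, adjusted p = 0.0964).

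LGALS3, the lectin galectin 3, also differed between the emulsions. Against ENT-sham LGALS3 did not pass over all pigs, but it passed with a rise in 2 of 42 settings. Across these settings its difference lay between -0.10 and 1.52. It ranged from 0.312 to 1.58 CPM with a median of 0.670 in 11 ENT-sham pigs, from 1.02 to 3.53 CPM with a median of 1.56 in MLE-sham, and from 3.37 to 59.9 CPM with a median of 14.9 in SLE-sham, and was lower in MLE-sham than in SLE-sham by 3.85 (SE 0.51, adjusted p = 7.09e-06), with a single SLE-sham pig inside the MLE-sham range. SLC25A47, a liver mitochondrial carrier outside the lists, averaged 79.5 ± 26.6 CPM in ENT-sham, 56.9 ± 31.3 in SLE-sham, and 24.6 ± 12.5 in MLE-sham. It was lower in MLE-sham than in ENT-sham by 1.70 (SE 0.29, adjusted p = 1.33e-05) and than in SLE-sham by 1.22 (SE 0.30, adjusted p = 0.0245). It was picked after its values were seen, from the genes called in both tests, which share the MLE-sham pigs.

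Other list members passed between the emulsions and, over all pigs, did not pass against ENT-sham. LPL, the lipase that frees fatty acids from lipoproteins and is normally scarce in liver, ranged from 0 to 0.761 CPM with a median of 0.135 in ENT-sham, from 0.0558 to 0.538 CPM with a median of 0.250 in MLE-sham, and from 0.581 to 10.5 CPM with a median of 2.41 in SLE-sham. No MLE-sham pig reached the SLE-sham range, and LPL was lower in MLE-sham than in SLE-sham by 4.36 (SE 0.65, adjusted p = 5.11e-05). SPP1, osteopontin, made by duct and injured cells, ranged from 8.73 to 71.0 CPM with a median of 14.0 in ENT-sham, from 20.6 to 42.8 CPM with a median of 30.1 in MLE-sham, and from 57.7 to 197 CPM with a median of 105 in SLE-sham. The ENT-sham maximum was that of replicate 2, and the other 11 pigs stayed at or below 29.96 CPM. MLE-sham pigs again lay wholly under SLE-sham, and SPP1 was lower by 1.91 (SE 0.31, adjusted p = 0.000302). The apolipoprotein APOA4, the nuclease ISG20, and the NF-kappaB regulators IKBKE and NFKBIA were lower in MLE-sham than in SLE-sham by 1.96, 1.94, 0.95, and 0.59, and CTH, which makes cysteine, and the junction protein CLDN1 were higher by 0.75 and 0.43. Against ENT-sham the differences of these 8 genes over all pigs lay between -0.91 and 0.60, with adjusted p-values of 0.131 to 0.997. Without ENT-sham replicate 2 SPP1 and IKBKE passed against ENT-sham, at 0.99 (adjusted p = 0.00219) and 0.59 (adjusted p = 0.0162), and with the number as a block SPP1 and APOA4 did, at 0.98 (adjusted p = 0.0363) and -1.47 (adjusted p = 0.0318).

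Within the shared numbers, with 2 ENT-sham and 4 MLE-sham pigs, 31 of the 82 named genes that passed over all pigs no longer did. Beside those given above, the rises of MAL, DERL3, EGR1, INSIG1, HYOU1, DDIT3, CHAC1, and ABCG8 then stood at 1.90, 2.64, 2.24, 0.76, 0.86, 1.01, 1.23, and 0.62, with adjusted p-values of 0.0529 to 0.43. The falls of CYP2E1, CYP2C49, ANGPTL8, CYP4A21, FMO1, SULT2A1, HBB, AHSP, TNC, and CXCL11 stood at -2.48, -3.05, -1.23, -1.91, -1.85, -1.26, -0.97, -0.69, -0.45, and -2.44, with adjusted p-values of 0.0502 to 0.464.

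**Figure D5:**
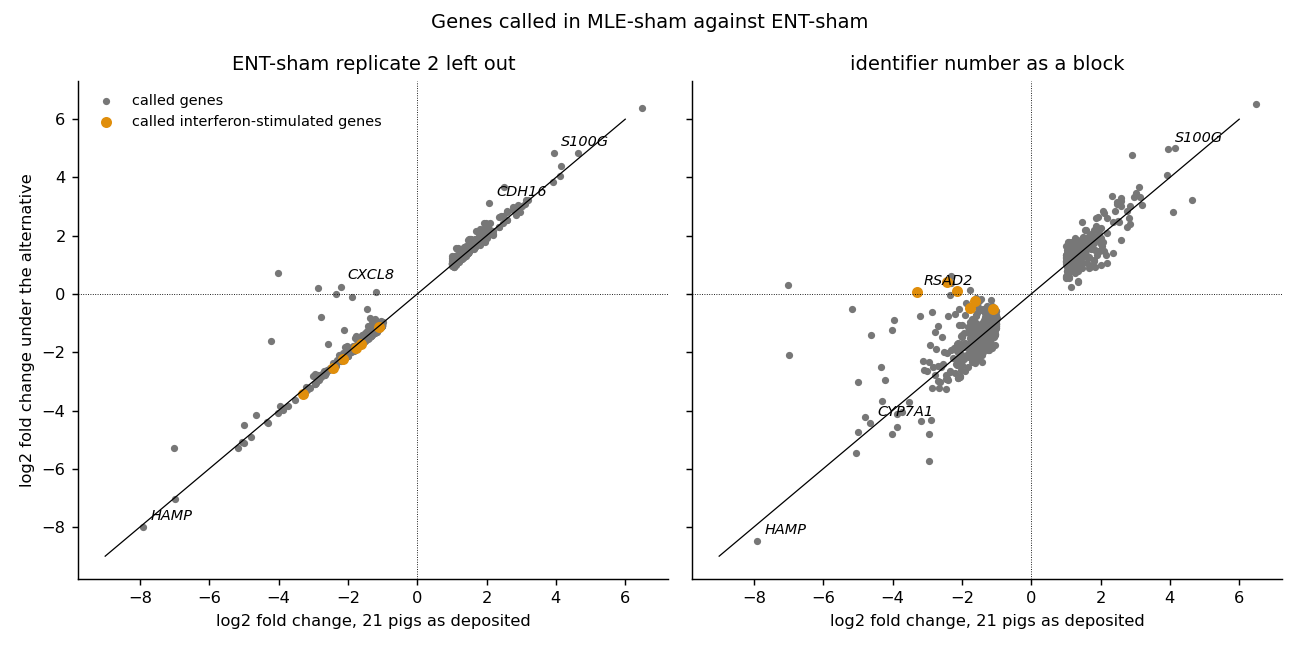
Each point is 1 of the genes called in MLE-sham against ENT-sham, with the log2 fold change over all 21 pigs on the horizontal axis and that under an alternative on the vertical axis, and a diagonal where they are equal. Leaving out ENT-sham replicate 2 moves CXCL8 above 0 and CDH16 upwards, and the identifier number block moves the called interferon-stimulated genes, in orange, to values between -0.52 and 0.42.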

How the data were processed

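Liver RNA of 60 pigs was sequenced by the authors as poly-A selected, paired-end libraries (strand setting not given in the sources used here), trimmed with fastp, aligned to Sscrofa11.1 with HISAT2 2.0.5, assembled with StringTie 1.3.3, and counted per gene with featureCounts 1.5.0-p3, versions as in the submitters' processing notes. The values deposited by the authors were raw counts of reads per gene. Of these, 24 unnamed features with 0.00842% to 0.0407% of counts were left out, and all 30335 named genes matched RefSeq by gene ID. Pigs were grouped by their labels.

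Counts were tested with edgeR 4.0.16 in R 4.3.3 (TMM scaling, filterByExpr, robust quasi-likelihood fit), with all 60 pigs in 1 model so that the groups share 1 estimate of the spread. A gene was called at a Benjamini-Hochberg adjusted p under 0.05 and a change of more than 2-fold, the limits of the study, which used DESeq2. The SE is the absolute log2 fold change divided by the square root of the F statistic. CPM are counts over TMM-scaled library sizes. The comparison was checked on simulated counts (16034 genes, 200 changed by 2 on the log2 scale), where edgeR recovered 200 with 3 false calls. The changed genes were drawn from well-counted genes, and their change lay well beyond the 2-fold limit. No identifier number effect and no matching libraries were simulated, so the check does not bear on either. The counts give only the precision of their depth, 14776809 to 21139248 reads a library, 18617 to 20559 detected genes, and 15.5% to 24.2% of reads in the 10 most abundant genes.

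The members and the 41 lists (32 pathways and 9 cell types) were chosen with earlier results of these data known. Genes named were the 10 largest rises and 10 largest falls among called genes that have a symbol and average 2 or more in log2 CPM, the 4 called members of each list with the lowest adjusted p, and fixed central genes, 101 in all. Further list members were named as examples after their values were seen. Where a symbol had several rows, 487 rows in all, the less abundant ones carry their gene ID. Alternatives were leaving out ENT-sham replicate 2, the library it matched, or each sham pig in turn, the identifier number or replicate number as a block, pigs of the shared identifier numbers only, DESeq2 1.42.0, RLE scaling, fits on the compared groups, filters on low counts, and leaving out the 10 most abundant genes. No sequence was used here, and some members of the lists are counted but not reported by name here.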

Additional observations from a re-analysis of the deposited data

Results flagged for a closer look

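In 11 of the 101 named genes, 1 of the 9 MLE-sham pigs lay apart from the others by a gap, as a share of the group's range on the log2 scale, above Dixon's critical value, a criterion that chance meets in about 1 in 20 groups. Groups of over 10 pigs were not examined. MLE-sham replicate 2 was apart in 5 of these genes. Its ADH4 was 34.6 CPM against 6.14 to 10.7 in the other 8 pigs, its CPT1A 199.5 against 93.3 to 108, its LGALS3 3.53 against 1.02 to 1.97, its ATP1B2 3.08 against 11.03 to 20.7, and its PKLR 43.5 against 65.3 to 76.4. The same pig had the highest SAA2 of its group. MLE-sham replicate 6 was the lowest in CYP2E1, at 33.1 CPM against 111 to 274, and in FMO1, at 87.2 against 406 to 580. MLE-sham replicate 4 was the highest in CYP7A1, at 2.44 CPM against 0 to 0.705, and in SELP, at 5.01 against 1.35 to 2.63. MLE-sham replicate 7 was the highest in ATOH8, at 7.86 CPM against 3.27 to 4.64, and MLE-sham replicate 9 the lowest in MT3, at 136 against 385 to 655.

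The difference between MLE and ENT pigs itself differed between sham and bile duct-ligated (BDL) pigs for HMGCS1, of cholesterol synthesis. It was 1.79 on the log2 scale in sham pigs and 0.31 in BDL pigs, where ENT-BDL livers had 712 ± 195 CPM and MLE-BDL livers 884 ± 152 (SD). The interaction was 1.48 (SE 0.30, adjusted p = 0.0423, edgeR), and 1.67 (adjusted p = 0.00162) without ENT-sham replicate 2. Leaving out each sham pig in turn gave 1.38 to 1.67, and it passed in 24 of 31 fits, with an adjusted p of up to 0.0635. These fits include 10 that left out an SLE-sham pig, which this difference does not involve. The BDL pigs were not left out in turn. Of all genes tested, 4 (0.0247%) were called for this interaction and 10 (0.0617%) passed at any fold, and without ENT-sham replicate 2 the counts were 26 and 47. With the identifier number as a block they were 29 and 76, and 58 and 130 with the block and replicate 2 left out.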

How the results depend on the processing

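Of the 82 named genes that passed between MLE-sham and ENT-sham, 46 stayed past the threshold in every setting in which they were fitted, 79 kept their sign in every setting, and 73 stayed past it with any 1 pig left out. Within the shared identifier numbers, with fewer pigs, 31 no longer passed, and with the identifier number as a block 13. Signs turned in 3 genes. RSAD2 was 0.051 with the number as a block, 0.040 with the block and ENT-sham replicate 2 left out, and 0.13 within the shared numbers, and IFIT1 was 0.11 and 0.16 with the block, with and without replicate 2. CXCL8 lay between -2.43 and 0.25 with 1 pig left out, the latter without ENT-sham replicate 2, and was 0.25 without both matching libraries, 0.25 in DESeq2 on the compared groups, and 0.23 within the shared numbers. The cause of these shifts was not tested.

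Leaving out 1 pig gave 547 to 673 called genes, 237 to 326 higher and 308 to 366 lower, the highest counts without ENT-sham replicate 2 except for the lower genes, which peaked without MLE-sham replicate 4. It gave 47 (without MLE-sham replicate 3 or 5) to 93 (without SLE-sham replicate 9) between MLE-sham and SLE-sham, and 799 to 926 between SLE-sham and ENT-sham. Requiring 10 counts in every pig, which removes genes that are absent from a group, left 270 called genes (109 higher, 161 lower), 40 between the emulsions, and 396 between SLE-sham and ENT-sham. With no fold limit 3417, 162, and 4463 passed. Without a filter on low counts 784 of 25165 genes were called, and DESeq2 on all pigs called 629. Between the emulsions DESeq2 on the compared groups called 114, and within the shared numbers SLE-sham against ENT-sham gave 317. Replicate numbers in the labels do not mark shared animals, and over 9 number pairs the correlation of deviations was -0.118 to 0.0743. With the replicate block 440 genes were called (196 higher, 244 lower), and 23 between the emulsions. Depth limits the genes with a median under 1 CPM in a group, such as EPO in every sham group, LPL and HAMP in MLE-sham, and MFSD2A in ENT-sham, for which fold changes rest on few reads.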
